A study of Mus musculus with 12 samples.

Results

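The proteasome genes were taken from the count table by symbol: every gene whose GENCODE vM21 symbol reads Psma, Psmb, Psmc, Psmd, Psme, Psmf or Psmg followed by a number, leaving out Psmb8, Psmb9 and pseudogenes. The rule gave 46 genes among the 55421 Ensembl identifiers of the table. They comprised 8 genes of the alpha ring, 9 of the beta ring, 9 of the base, 8 of the lid, 5 activators and inhibitors, and 7 assembly chaperones. Messenger RNA was sequenced from 12 libraries of 2 mouse cell lines, in 4 groups of 3. ID8 is a cancer line from ovarian surface epithelium, labelled as wildtype C57BL6J, and was measured after 6 h with 5 nM rebastinib and as control. PMJ2R is a peritoneal macrophage line on the same background that carries the v-raf and v-myc oncogenes in both of its groups, and it received the same treatment. Rebastinib inhibits kinases, among them TIE2, which binds angiopoietins. The labels call the source mice female in all groups and do not say what control cells received, nor whether the 3 libraries of a group came from separate cultures. The p-values therefore reflect the spread among these libraries alone, and that spread may be technical. The comparisons ask how the drug changed transcripts in each line, whether that change differed between the lines, and how the control cells of the lines differed.

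The proteasome is the barrel-shaped protease that degrades ubiquitin-tagged proteins. Outer alpha rings gate the entrance, inner beta rings hold the catalytic sites, and the regulatory particle unfolds the substrate with the ATPases of its base and strips ubiquitin in its lid. Other caps bind the same alpha rings: PA28 (Psme1 with Psme2, or Psme3 alone) and PA200 (Psme4). The chaperones PAC1 to PAC4 (Psmg1 to Psmg4) build the rings, and Psmd5, Psmd9 and Psmd10 (gankyrin) build the base. Interferon-induced catalytic subunits, among them Psmb10, can replace the constitutive ones, and peptides from the proteasome feed presentation by MHC class I.

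Libraries held 19025504 to 27070556 counts. The proteasome genes together took 0.799 to 0.868% of all counts in rebastinib-treated ID8 libraries and 0.599 to 0.647% in ID8 control libraries, and 0.660 to 0.666% in rebastinib-treated PMJ2R libraries and 0.603 to 0.652% in PMJ2R control libraries. Transcripts that overlap ribosomal RNA, mitochondrially encoded genes and ribosomal protein genes took 14.6 to 16.8% of counts in treated ID8 libraries against 7.78 to 8.69% in ID8 control, and 19.1 to 19.3% in treated PMJ2R libraries against 8.97 to 9.35% in PMJ2R control. Counts overlapping ribosomal RNA alone were 1.05 to 1.60% in treated ID8 libraries against 0.106 to 0.355% in ID8 control, and 5.63 to 5.99% in treated PMJ2R libraries against 0.0927 to 0.172% in PMJ2R control. These shifts run with the treatment in both lines, and their part in the results was not tested beyond the other scalings given beside them. No label gives a batch or an RNA quality value, so a difference in handling between treated and control libraries cannot be told apart from treatment. The lines carried their own markers. All 8 ovarian markers stood above 1 CPM (counts scaled for depth, on 1 scale for all 12 libraries) in every ID8 library, with sums of 3016 to 3332 CPM with rebastinib and 3545 to 3846 CPM in control. In PMJ2R their sums were 9.42 to 10.1 CPM with rebastinib and 7.19 to 8.41 CPM in control, nearly all of it Amhr2. All 8 macrophage markers stood above 1 CPM in every PMJ2R library, with sums of 3310 to 3399 CPM with rebastinib and 2129 to 2239 CPM in control. In ID8 their sums were 15.9 to 20.7 CPM with rebastinib and 9.76 to 10.6 CPM in control, and Adgre1, Spi1, Laptm5, Itgam and Lyz2 had no count there.

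Of the 46 genes, 44 passed the expression filter in every comparison, and Psma8 and Psmb11 passed in none. Psma8, the alpha subunit of the testis, had 1 count over all 12 libraries, in a treated PMJ2R library. Psmb11, the catalytic subunit of thymic cortical epithelium, had 0 counts in treated ID8, 3 in ID8 control, 3 in treated PMJ2R and 5 in PMJ2R control, each summed over 3 libraries. The other 44 were all expressed. Levels of different genes were compared per transcript length, as TPM (counts per exon length, scaled to 1 fixed sum per library) within a group. Psmd7, a subunit of the lid, was the most abundant in both ID8 groups, at 454 ± 21.4 TPM with rebastinib and 469 ± 11.3 TPM in control (SD, n = 3), though in treated cells Psmc5 lay within that spread at 449 ± 23.1 TPM. Psmb2 was the most abundant in treated PMJ2R cells, at 430.2 ± 11.02 TPM, with Psma5 within that spread at 429 ± 7.47 TPM. Psma6 was the most abundant in PMJ2R control cells, at 410.2 ± 9.44 TPM, followed by Psmd7 at 394 ± 14.1 TPM. Since TPM is a share of the library, which the abundant transcripts also fill, it was not compared between groups. In ID8 the alpha ring was the most even of the 6 structural groups: its highest tested subunit stood 2.09-fold above its lowest in treated and 2.29-fold in control cells. In PMJ2R that ratio was 4.01 in treated and 3.64 in control cells, and the base was more even, at 3.76 and 3.17. In the beta ring it was 5.19 in treated and 6.80 in control ID8 cells, and 11.5 in treated and 4.27 in control PMJ2R cells, with the inducible Psmb10 the lowest in each group. Psmf1, the inhibitor PI31, and the chaperones Psmg3 and Psmd9 lay at the bottom of the list, between 10.03 and 18.8 TPM where they were the lowest of their class.

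Rebastinib was followed by higher levels of nearly the whole particle in both lines. In ID8, 41 of the 44 tested genes were higher and 1 was lower (edgeR quasi-likelihood test, adjusted p at 0.05), while 38.4% of all 14829 genes tested were called higher and 42.0% lower. The median log2 fold change was 0.89 over the proteasome genes and -0.07 over all genes tested, and 16 of the 41 rose and 0 fell at least 2-fold, against 15.6% and 24.4% of all genes. In PMJ2R, 37 were higher and 5 lower, against 40.1% and 43.6% of all 14010 genes, and the medians were 0.56 and -0.05. There 6 rose and 1 fell at least 2-fold, against 15.6% and 25.7% of all genes, so the rises of that size were no more frequent than over all genes. The ID8 and PMJ2R comparisons share no library, and 36 of the 44 genes were called higher in both, against 29.9% of the 12398 genes tested in both. Summed over all 46 genes, the level was 9528 ± 745 CPM in treated and 5227 ± 269 CPM in control ID8 cells, and 8043 ± 56.8 CPM in treated and 5414 ± 103 CPM in control PMJ2R cells (SD, n = 3). The treated ID8 libraries held 10207, 9644 and 8731 CPM, all above the 5053, 5092 and 5537 CPM of their controls, and treated PMJ2R libraries held 8100, 8043 and 7986 CPM, all above 5510, 5427 and 5304 CPM. In bulk RNA a change in the number of cells of a kind and a change in RNA per cell cannot be told apart.

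These directions are relative to the scaling. With library totals alone, the median of all genes moved to -0.50 in ID8 and to -0.60 in PMJ2R, and the calls became 35 higher and 3 lower in ID8 but 20 higher and 16 lower in PMJ2R. Of all 14829 genes in ID8, 3540 were then called higher and 8471 lower. Of all 14010 in PMJ2R, 3103 were called higher and 8676 lower. The distance of the proteasome median from the median of all genes was 0.96 in ID8 and 0.61 in PMJ2R. Library totals left this distance the same to 2 decimals, but could hardly change it, since another scaling shifts all genes by nearly the same amount. Without an expression filter the distance was 1.00 in ID8 but 0.32 in PMJ2R. With trends on transcript length and GC content removed, that distance was 0.66 in ID8 and 0.57 in PMJ2R, with 41 and 38 genes called higher. This setting moved the median of all genes up, to 0.19 in ID8 and 0.13 in PMJ2R. It called 7033 of all 14829 genes higher in ID8 and 6411 of 14010 in PMJ2R. Over all alternatives tried, 35 of the 41 higher calls were kept in ID8 and 20 of the 37 in PMJ2R, and with library totals set aside 39 and 29 were kept. Of the lower calls, that in ID8 and 4 of the 5 in PMJ2R were kept. Among the 44 genes the log2 fold change and the transcript length had a Spearman rho of -0.19 in ID8 and 0.11 in PMJ2R, given as a description over genes that share the same libraries.

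**Figure D1:**
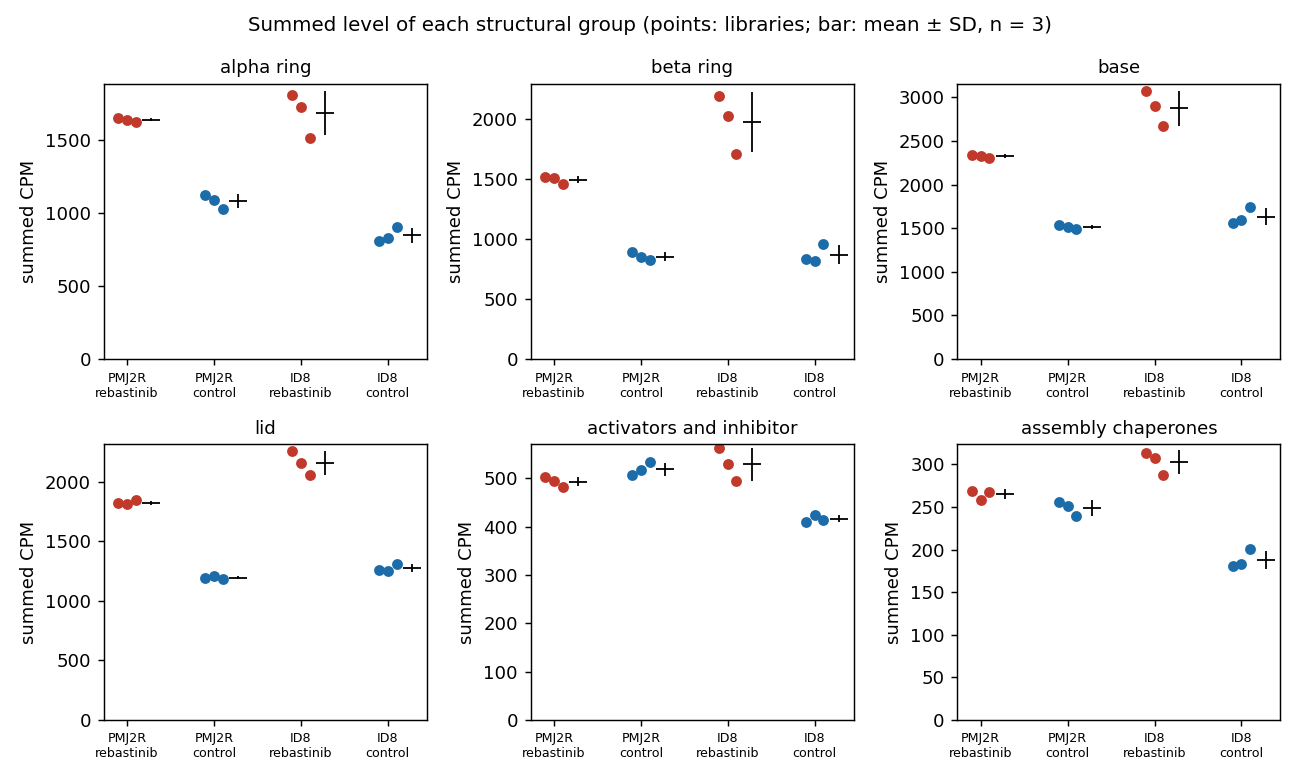
Summed level of each structural group in CPM (y axis, from 0) in the libraries of rebastinib-treated and control PMJ2R and ID8 cells (x axis); points are libraries and the bar is the mean ± SD (n = 3). In the beta ring treated ID8 libraries stand at 1975 ± 247 CPM against 869 ± 77.6 CPM in control, whereas activators in treated PMJ2R cells stand at 494 ± 9.57 CPM against 519 ± 13.3 CPM in control.

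The sequences before the start of these genes were searched for 2 short motifs on both strands, in RefSeq windows of 250 bases before to 50 after each start (GRCm38.p6), which were found for 38 of the 46 genes. TGACNNNGC is the core of the antioxidant response element, bound by NFE2L1 and NFE2L2, the factors known to drive proteasome genes. It lay in the windows of 6 of the 38 genes (15.8%) and in those of 14.0% of all 27025 genes. CCAAT, the motif of NF-Y, lay in 13 of 38 (34.2%) and in 41.1% of all genes, and in 5 of the 7 alpha ring genes with a window. The motifs do not overlap each other in letters. The sites that end before the start are printed here because 2 of them sit before Psmb5 and Psmb6, which encode constitutive catalytic subunits described further on, and the others before genes of the base, the lid and the chaperones. Capitals mark the motif, each sequence reads 5′ to 3′ on the strand of its gene, and for a motif on the other strand the capitals show its reverse complement.
Psmb5, chr14:54618004-54618072, minus strand: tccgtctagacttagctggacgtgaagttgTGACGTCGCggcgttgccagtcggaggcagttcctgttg
Psmb6, chr11:70525318-70525356, plus strand: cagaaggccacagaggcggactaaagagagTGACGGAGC
Psmd9, chr5:123228129-123228189, plus strand: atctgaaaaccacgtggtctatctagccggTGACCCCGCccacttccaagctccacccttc
Psmc6, chr14:45329574-45329635, plus strand: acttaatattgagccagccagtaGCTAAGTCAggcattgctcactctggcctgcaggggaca
Psmd12, chr11:107479278-107479319, plus strand: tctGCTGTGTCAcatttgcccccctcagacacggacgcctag
A match describes the letters only. The 5 genes did not share 1 size of response: their log2 fold changes in ID8 were 1.17 for Psmb5, 1.14 for Psmb6, 0.86 for Psmd9, 0.40 for Psmc6 and 0.74 for Psmd12, on both sides of the proteasome median. In PMJ2R they were 0.91, 0.76, 0.51, 0.52 and 0.68 in the same order. The remaining gene with the motif, Psme4, has its site across the start, and its values were -0.09, not called, in ID8 and 0.19 in PMJ2R.

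The alpha ring rose in both lines with 1 exception. In ID8 all 7 tested subunits were higher, with a median log2 fold change of 1.01, and in PMJ2R 6 were higher and 1 lower, with a median of 0.82. Psma2 led in ID8: it stood at 340.4, 323 and 274 CPM in rebastinib-treated ID8 cells, against 123, 124 and 133 CPM in ID8 control cells. Its log2 fold change there was 1.31 ± 0.08 (SE, edgeR adjusted p = 3.54e-09), and it was 0.92 in PMJ2R. Psma5 led in PMJ2R, at 271, 261 and 264 CPM in rebastinib-treated PMJ2R cells, against 142, 135 and 121 CPM in PMJ2R control cells, and treated and control libraries lay far apart. Its log2 fold changes were 1.06 ± 0.06 (SE, edgeR adjusted p = 6.65e-12) in PMJ2R and 1.01 in ID8, and the difference of the responses, PMJ2R minus ID8, was -0.0035 ± 0.09 (SE, edgeR adjusted p = 1.00). Psma4 was the exception. It stood at 204, 203 and 199 CPM in rebastinib-treated PMJ2R cells, against 248, 230.4 and 237 CPM in PMJ2R control cells, but at 209, 209.98 and 176 CPM in rebastinib-treated ID8 cells, against 132, 138 and 154 CPM in ID8 control cells. Treated libraries were the lower in PMJ2R and the higher in ID8, without overlap in either line. Its log2 fold change was -0.18 ± 0.05 (SE, edgeR adjusted p = 0.00178) in PMJ2R and 0.49 ± 0.08 (SE, edgeR adjusted p = 9.37e-05) in ID8, and the difference of the responses was -0.72 ± 0.10 (SE, edgeR adjusted p = 1.55e-06). In ID8 its call was lost with library totals alone, at 0.06, and with the replicate block and the length and GC trends removed, at 0.16.

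The beta ring had the highest median of the 6 groups in both lines. In ID8 all 8 tested subunits were higher, 7 of them at least 2-fold, with a median log2 fold change of 1.21. In PMJ2R 7 were higher and 1 lower, with a median of 0.92. The constitutive catalytic subunits rose in both lines. Psmb5, the chymotrypsin-like site, stood at 144, 134 and 114 CPM in rebastinib-treated ID8 cells, against 56.1, 55.6 and 63.8 CPM in ID8 control cells, and at 92.6, 90.3 and 87.1 CPM in rebastinib-treated PMJ2R cells, against 52.03, 52.7 and 45.3 CPM in PMJ2R control cells. Psmb6, the caspase-like site, stood at 366, 331 and 283 CPM in rebastinib-treated ID8 cells, against 144, 136 and 166 CPM in ID8 control cells, and at 181, 185 and 176 CPM in rebastinib-treated PMJ2R cells, against 112, 107 and 115 CPM in PMJ2R control cells. Psmb7, the trypsin-like site, stood at 284, 287 and 245 CPM in rebastinib-treated ID8 cells, against 116, 115 and 133 CPM in ID8 control cells, and at 272, 271 and 262 CPM in rebastinib-treated PMJ2R cells, against 148, 143 and 131 CPM in PMJ2R control cells. No treated library of either line overlapped a control library for any of the 3 sites. How often all genes lack such overlap was not counted, here or for the other genes named. Only 2912 of the 14829 genes tested in ID8 and 2280 of the 14010 in PMJ2R were not called. The log2 fold changes of the 3 sites in ID8 were 1.17 ± 0.09 (SE, edgeR adjusted p = 2.87e-08) for Psmb5, 1.14 ± 0.10 (SE, edgeR adjusted p = 6.53e-08) for Psmb6 and 1.17 ± 0.08 (SE, edgeR adjusted p = 1.04e-08) for Psmb7. In PMJ2R they were 0.91 ± 0.07 (SE, edgeR adjusted p = 3.49e-10) for Psmb5, 0.76 ± 0.05 (SE, edgeR adjusted p = 3.19e-11) for Psmb6 and 0.99 ± 0.05 (SE, edgeR adjusted p = 5.44e-12) for Psmb7. The structural subunits Psmb1, Psmb2 and Psmb3 rose by 1.35, 1.25 and 1.35 on the log2 scale in ID8 and by 1.08, 1.07 and 0.93 in PMJ2R. Psmb1 was the highest of the ring in PMJ2R, at 309, 319 and 318 CPM in rebastinib-treated PMJ2R cells, against 165, 156 and 145 CPM in PMJ2R control cells. Psmb4 rose least in ID8, at 292, 265 and 226 CPM in rebastinib-treated ID8 cells, against 148, 139.7 and 165 CPM in ID8 control cells, by 0.80 ± 0.09 (SE, edgeR adjusted p = 1.85e-06). Exons of Psmb7 overlap Nek6 on the opposite strand over 11.8% of its length, and those of Psmb5 hold Mir686 on the same strand over 12.1%, and the strand setting of the counting is not given in the sources used here.

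Psmb10 went opposite ways in the lines. This subunit is induced by interferon gamma and takes the place of Psmb7 in the immunoproteasome. It stood at 30.1, 30.6 and 28.8 CPM in rebastinib-treated PMJ2R cells, against 42.7, 37.8 and 39.1 CPM in PMJ2R control cells, with a log2 fold change of -0.36 ± 0.07 (SE, edgeR adjusted p = 0.000124). In ID8 it had the largest rise of the 44 genes, at 70.1, 59.6 and 50.997 CPM in rebastinib-treated ID8 cells, against 17.7, 19.5 and 22.5 CPM in ID8 control cells, with a log2 fold change of 1.60 ± 0.12 (SE, edgeR adjusted p = 1.58e-08). The 3 treated libraries were all lower in PMJ2R and all higher in ID8 than their controls. The difference between the responses was -2.01 ± 0.14 (SE, edgeR adjusted p = 4.83e-11), the largest of the 44 genes, and both calls and the difference were kept in every alternative tried. As a share of the level per length of Psmb10 plus Psmb7, Psmb10 took 18.1, 18.5 and 18.04% in treated PMJ2R against 36.7, 34.7 and 37.4% in PMJ2R control. In ID8 it took 33.1, 29.4 and 29.5% in treated cells against 23.4, 25.4 and 25.3% in control. The share was thus 18.2% ± 0.223 with rebastinib and 36.3% ± 1.42 in control in PMJ2R, and 30.7% ± 2.12 and 24.7% ± 1.12 in ID8 (SD, n = 3), with no overlap of treated and control libraries in either line.

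**Figure D2:**
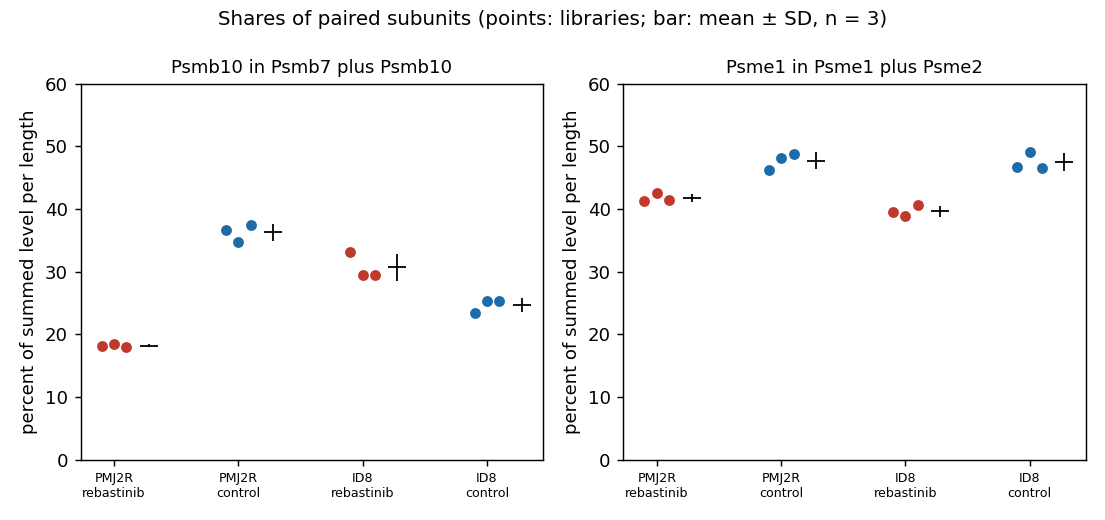
Share of Psmb10 in Psmb7 plus Psmb10 (left) and of Psme1 in Psme1 plus Psme2 (right), in percent of the summed level per transcript length (y axis), in the libraries of treated and control PMJ2R and ID8 cells (x axis). Points are libraries and bars the mean ± SD (n = 3); the Psmb10 share is 18.2% in treated and 36.3% in control PMJ2R cells, and 30.7% in treated and 24.7% in control ID8 cells.

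All 9 genes of the base were higher in ID8, with a median log2 fold change of 0.73, and 8 of 9 in PMJ2R, with a median of 0.52. Of the higher calls in PMJ2R, those of Psmc2, Psmd1 and Psmd2 were kept in every alternative. Psmc1 and Psmc4 were not called there without an expression filter, at 0.055 and 0.051, and were called lower with library totals, at -0.30 each. Psmc5 and Psmc6 lost their PMJ2R call with library totals, at 0.037 and -0.038. Psmc1 to Psmc6 encode the ATPases that unfold the substrate. Psmc5 rose most in ID8, at 324, 278 and 251 CPM in rebastinib-treated ID8 cells, against 125, 119.8 and 137 CPM in ID8 control cells, by 1.17 ± 0.09 (SE, edgeR adjusted p = 2.67e-08). Psmc6 rose least there, at 161, 171 and 159.8 CPM in rebastinib-treated ID8 cells, against 118, 126 and 131 CPM in ID8 control cells, by 0.40 ± 0.07 (SE, edgeR adjusted p = 9.85e-05), still without overlap of the libraries, though with library totals it was -0.037. Psmc2 rose most in PMJ2R, at 372, 366 and 362 CPM in rebastinib-treated PMJ2R cells, against 187, 174 and 169 CPM in PMJ2R control cells, by 1.11 ± 0.05 (SE, edgeR adjusted p = 4.49e-13). Psmc3 separated the lines. It stood at 150.3, 154 and 146 CPM in rebastinib-treated PMJ2R cells, against 153, 151 and 153 CPM in PMJ2R control cells, where treated and control libraries overlapped, but at 299, 287 and 249 CPM in rebastinib-treated ID8 cells, against 156, 160.01 and 189 CPM in ID8 control cells. The log2 fold change was 0.04 ± 0.05 (SE, edgeR adjusted p = 0.427) in PMJ2R and 0.73 ± 0.09 (SE, edgeR adjusted p = 2.70e-06) in ID8. With the length and GC trends removed the PMJ2R value was 0.35 and called higher, and it was called lower with library totals, at -0.52, and without an expression filter, at -0.17. The difference between its responses was -0.75 ± 0.10 (SE, edgeR adjusted p = 1.52e-06). The scaffold subunits Psmd1 and Psmd2 and the ubiquitin receptor Psmd4 (Rpn10) were higher in both lines. Psmd1 stood at 281, 274 and 286 CPM in rebastinib-treated ID8 cells, against 185, 183 and 183 CPM in ID8 control cells, and at 349, 340.2 and 344 CPM in rebastinib-treated PMJ2R cells, against 203, 212 and 204 CPM in PMJ2R control cells. Psmd2, the most abundant of the proteasome genes by CPM, rose by 1.00 in ID8 and by 1.02 in PMJ2R on the log2 scale. Psmd4 rose by 0.94 in ID8 and 0.31 in PMJ2R. The PMJ2R call of Psmd4 was lost without an expression filter, at 0.11, and with library totals Psmd4 was called lower, at -0.24. For Psmc3, 8.25% of its exon length overlaps Slc39a13 on the opposite strand.

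All 8 genes of the lid were higher in both lines, with median log2 fold changes of 0.74 in ID8 and 0.66 in PMJ2R. Psmd14 (Rpn11), the deubiquitinase that removes ubiquitin chains before degradation, had the largest rise of all 44 genes in PMJ2R. It stood at 293, 287 and 296 CPM in rebastinib-treated PMJ2R cells, against 132, 135 and 115 CPM in PMJ2R control cells, a log2 fold change of 1.26 ± 0.06 (SE, edgeR adjusted p = 1.34e-12). In ID8 it stood at 208, 206 and 199 CPM in rebastinib-treated ID8 cells, against 114, 119.8 and 129 CPM in ID8 control cells, a log2 fold change of 0.76 ± 0.07 (SE, edgeR adjusted p = 1.20e-07). Treated libraries lay above control libraries throughout, and the response was larger in PMJ2R by 0.44 ± 0.09 (SE, edgeR adjusted p = 0.000246). Its partner in the lid, Psmd7 (Rpn8), showed the reverse order. Psmd7 stood at 259, 264 and 269 CPM in rebastinib-treated PMJ2R cells, against 245, 235 and 239 CPM in PMJ2R control cells, and at 516, 447 and 435 CPM in rebastinib-treated ID8 cells, against 262, 267 and 289 CPM in ID8 control cells. Its log2 fold change was 0.20 ± 0.04 (SE, edgeR adjusted p = 0.000384) in PMJ2R and 0.78 ± 0.08 (SE, edgeR adjusted p = 4.42e-07) in ID8, and the difference was -0.63 ± 0.09 (SE, edgeR adjusted p = 3.04e-06). The small rise in PMJ2R was not kept. It was -0.36 and called lower with library totals, and -0.01 without an expression filter. With all 12 libraries in 1 fit it was 0.14 and not called. Psmd8 led the lid in ID8, at 222, 233 and 206 CPM in rebastinib-treated ID8 cells, against 98.8, 103 and 112 CPM in ID8 control cells, by 1.08 ± 0.07 (SE, edgeR adjusted p = 7.66e-09), and Psmd6 rose least, at 121, 127 and 115 CPM in rebastinib-treated ID8 cells, against 75.9, 80.04 and 86.5 CPM in ID8 control cells, by 0.59 ± 0.07 (SE, edgeR adjusted p = 4.29e-06). The others, Psmd3, Psmd11, Psmd12 and Psmd13, rose by 0.72 to 0.74 in ID8 and by 0.25 to 0.94 in PMJ2R on the log2 scale. The lowest of these, Psmd13 in PMJ2R, was 0.045 and not called without an expression filter, and -0.31 and called lower with library totals.

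**Figure D3:**
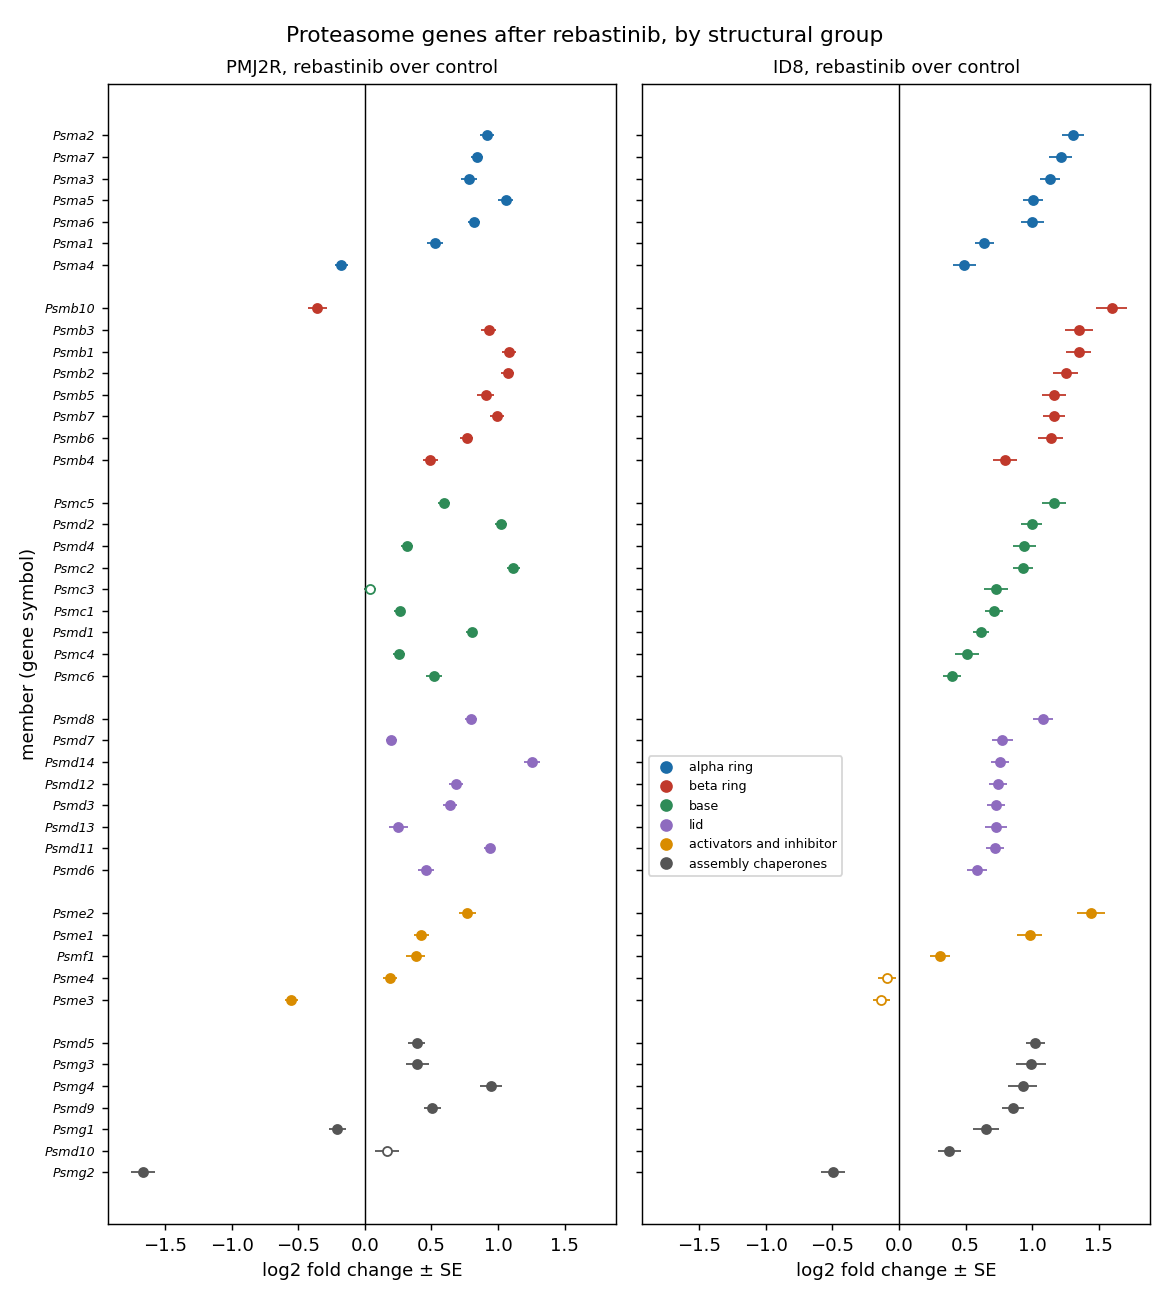
Log2 fold change ± SE (x axis) of each of the 44 tested proteasome genes (y axis, ordered by structural group) with rebastinib over control in PMJ2R (left) and ID8 (right); filled points were called and open points were not. Nearly all points lie right of 0, spanning -1.67 (Psmg2) and 1.26 (Psmd14) in PMJ2R and -0.50 (Psmg2) and 1.60 (Psmb10) in ID8.

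The activators split by kind. The subunits of the PA28 cap that interferon gamma induces, Psme1 and Psme2, lie 5911 bases apart on chromosome 14 and rose in both lines. Psme1 stood at 117, 97.8 and 89.1 CPM in rebastinib-treated ID8 cells, against 47.7, 51.8 and 54.9 CPM in ID8 control cells, and at 92.6, 90.3 and 85.2 CPM in rebastinib-treated PMJ2R cells, against 71.7, 69.8 and 66.99 CPM in PMJ2R control cells. Psme2 stood at 143, 123 and 104 CPM in rebastinib-treated ID8 cells, against 43.3, 42.95 and 50.3 CPM in ID8 control cells, and at 105, 97.2 and 96.2 CPM in rebastinib-treated PMJ2R cells, against 66.6, 59.9 and 56.1 CPM in PMJ2R control cells. Treated libraries were higher than controls without overlap for both genes in both lines. The log2 fold changes were 0.98 ± 0.10 (SE, edgeR adjusted p = 3.16e-07) for Psme1 and 1.44 ± 0.11 (SE, edgeR adjusted p = 1.62e-08) for Psme2 in ID8, and 0.42 ± 0.06 (SE, edgeR adjusted p = 1.25e-06) and 0.77 ± 0.07 (SE, edgeR adjusted p = 4.61e-09) in PMJ2R. With library totals alone Psme1 was at -0.13 in PMJ2R and called lower. Because Psme2 rose more, the share of Psme1 in the level per length of both was 39.6% ± 0.905 in treated and 47.5% ± 1.39 in control ID8 cells, and 41.8% ± 0.704 in treated and 47.7% ± 1.35 in control PMJ2R cells (SD, n = 3). Psme3, which encodes the nuclear PA28 gamma, was not called in ID8 and fell in PMJ2R. It stood at 138, 139 and 134 CPM in rebastinib-treated ID8 cells, against 151, 152 and 148 CPM in ID8 control cells, with a log2 fold change of -0.13 ± 0.06 (SE, edgeR adjusted p = 0.0678). It was called lower in ID8 with library totals, at -0.57, with genes under 5 CPM left out, at -0.22, and with all 12 libraries in 1 fit, at -0.14, but was 0.097 with the length and GC trends removed. In PMJ2R it stood at 186, 186 and 181 CPM in rebastinib-treated PMJ2R cells, against 264, 274 and 307 CPM in PMJ2R control cells, and fell by 0.55 on the log2 scale (-0.55 ± 0.05, SE, edgeR adjusted p = 9.21e-09). Psme4, the PA200 cap, stood at 125, 131 and 130.1 CPM in rebastinib-treated ID8 cells, against 138, 146 and 129 CPM in ID8 control cells, with overlapping libraries and a log2 fold change of -0.09 ± 0.07 (SE, edgeR adjusted p = 0.242), but other settings called it in either direction: it was 0.42 with the length and GC trends removed, -0.52 with library totals and -0.18 with genes under 5 CPM left out. It stood at 88.7, 90.6 and 91.95 CPM in rebastinib-treated PMJ2R cells, against 80.6, 88.3 and 79.2 CPM in PMJ2R control cells, with 0.19 ± 0.06 (SE, edgeR adjusted p = 0.00449). This value was -0.37 and called lower with library totals, and -0.02 and not called without an expression filter. The inhibitor Psmf1 stood at 38.8, 38.8 and 37.7 CPM in rebastinib-treated ID8 cells, against 29.7, 30.98 and 32.8 CPM in ID8 control cells, and at 29.99, 32.1 and 28.8 CPM in rebastinib-treated PMJ2R cells, against 23.8, 24.6 and 24.4 CPM in PMJ2R control cells, with log2 fold changes of 0.31 ± 0.08 (SE, edgeR adjusted p = 0.00225) in ID8 and 0.38 ± 0.07 (SE, edgeR adjusted p = 6.73e-05) in PMJ2R. With library totals these were -0.12, not called, in ID8 and -0.18, called lower, in PMJ2R. Without an expression filter the PMJ2R value was 0.18 and not called. Summed, the group stood at 529 ± 33.9 CPM in treated and 416 ± 7.03 CPM in control ID8 cells, and at 494 ± 9.57 CPM in treated and 519 ± 13.3 CPM in control PMJ2R cells (SD, n = 3).

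Of the 7 assembly chaperones, 6 were higher and 1 lower in ID8, and 4 were higher and 2 lower in PMJ2R. Psmg2 (PAC2), which forms a dimer with Psmg1 (PAC1) on the growing alpha ring, had the lowest log2 fold change of the 44 genes in both lines. It stood at 10.2, 11.7 and 11.8 CPM in rebastinib-treated PMJ2R cells, against 37.6, 39.8 and 34.2 CPM in PMJ2R control cells, with a log2 fold change of -1.67 ± 0.09 (SE, edgeR adjusted p = 5.57e-12). In ID8 it stood at 17.6, 15.4 and 15.9 CPM in rebastinib-treated ID8 cells, against 23.4, 22.8 and 22.99 CPM in ID8 control cells, with -0.50 ± 0.09 (SE, edgeR adjusted p = 0.000151), and treated libraries lay under every control library in both lines. The fall was larger in PMJ2R, by -1.23 ± 0.13 (SE, edgeR adjusted p = 2.57e-08). Psmg1 did not move with its partner in ID8, at 38.3, 40.5 and 33.2 CPM in rebastinib-treated ID8 cells, against 22.3, 22.9 and 26.1 CPM in ID8 control cells, a log2 fold change of 0.65 ± 0.10 (SE, edgeR adjusted p = 2.37e-05). In PMJ2R it stood at 41.6, 40.4 and 46.2 CPM in rebastinib-treated PMJ2R cells, against 51.1, 49.995 and 53.2 CPM in PMJ2R control cells, with -0.21 ± 0.06 (SE, edgeR adjusted p = 0.00513), and without the second treated library it was -0.16 at an adjusted p of 0.0556. The other ring chaperones, Psmg3 and Psmg4, were higher in both lines, but the call of Psmg3 in PMJ2R, at 0.39, was lost without an expression filter, at 0.19, and the value was -0.16 with library totals. Psmg4 stood at 31.2, 34.7 and 30.6 CPM in rebastinib-treated PMJ2R cells, against 18.4, 17.8 and 16.1 CPM in PMJ2R control cells, a log2 fold change of 0.95, and at 20.1, 17.7 and 16.2 CPM in rebastinib-treated ID8 cells, against 9.84, 8.99 and 9.55 CPM in ID8 control cells, with 0.93. Psmd5 led in ID8, at 102, 101 and 102 CPM in rebastinib-treated ID8 cells, against 49.9, 47.9 and 52.8 CPM in ID8 control cells, by 1.02 ± 0.07 (SE, edgeR adjusted p = 6.74e-09). Its value of 0.39 in PMJ2R was -0.17 and called lower with library totals. Psmd9 had log2 fold changes of 0.86 in ID8 and 0.51 in PMJ2R, with 25.5% of its exon length shared with Gm26745 on the opposite strand. Psmd10 (gankyrin) was higher in ID8, 0.38 ± 0.09 (SE, edgeR adjusted p = 0.00109), and was not called in PMJ2R, 0.17 ± 0.09 (SE, edgeR adjusted p = 0.0909). In ID8 its call was lost with the length and GC trends removed, at 0.13, and with library totals, at -0.06.

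**Figure D4:**
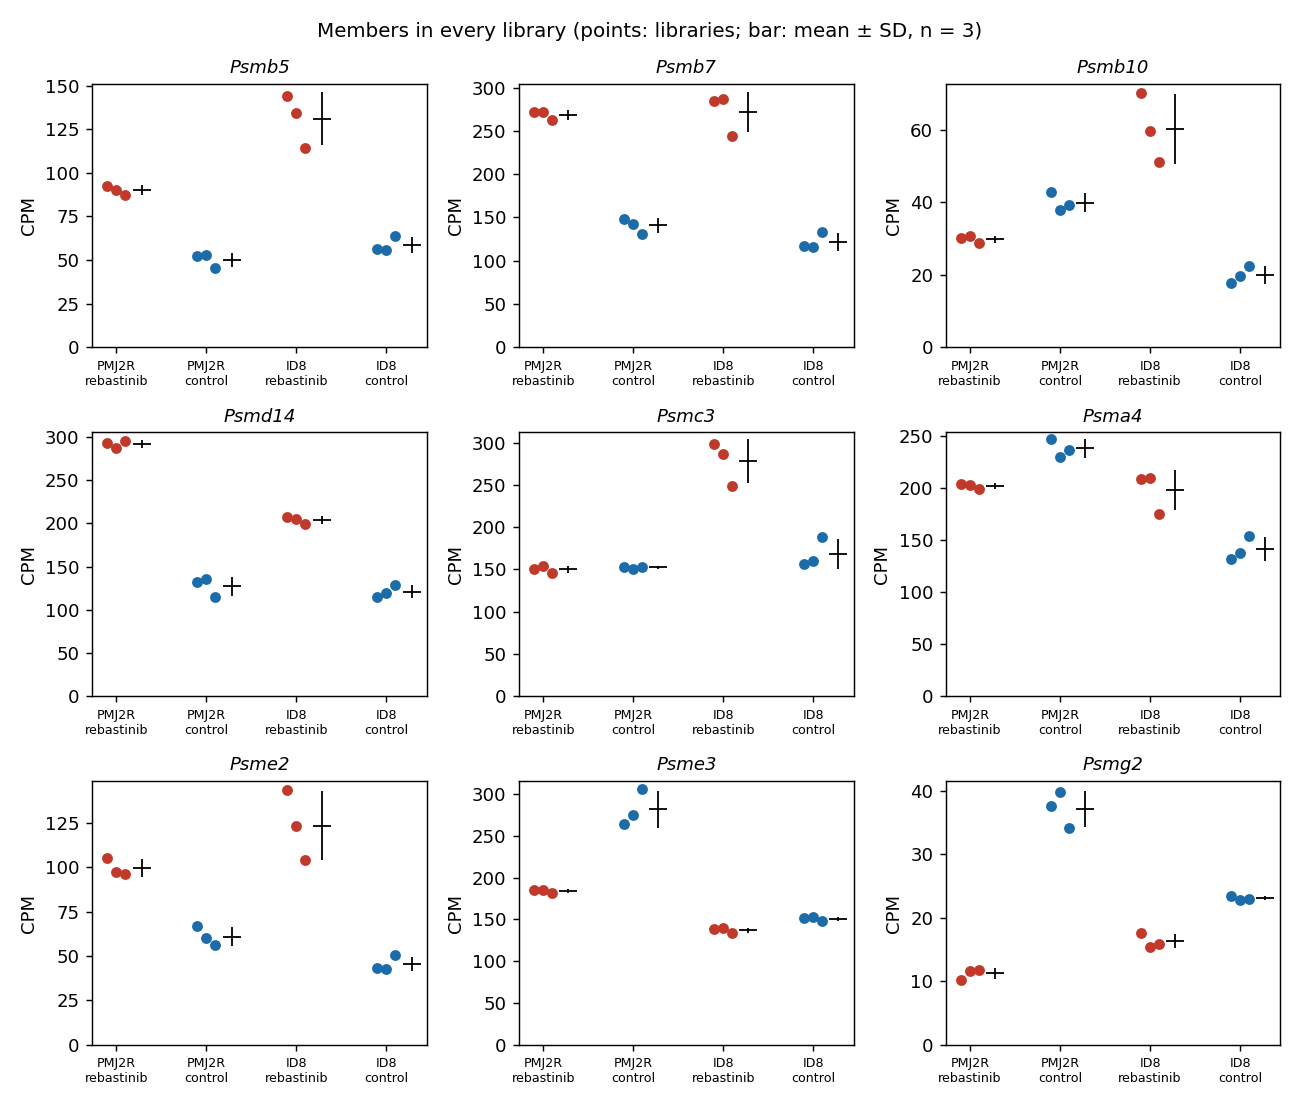
Level in CPM (y axis, from 0) of 9 proteasome genes in every library of treated and control PMJ2R and ID8 cells (x axis); points are libraries and bars the mean ± SD (n = 3). Psmb5, Psmb7, Psmd14 and Psme2 are higher in treated cells of both lines, Psmg2 is lower in both, and Psmb10 and Psma4 are lower in treated PMJ2R and higher in treated ID8 cells.

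The size of the response differed between the lines for most of these genes. The log2 fold change was the higher in PMJ2R for 10 of the 44 genes and the higher in ID8 for 34. How all genes split in this way was not counted. By the interaction test over all 12 libraries, 2 genes responded more strongly upward in PMJ2R and 27 less so or downward, against 21.8% and 30.6% of all 16566 genes tested, and the median difference was -0.35 against -0.10 for all genes. The distance between these medians, -0.25, was -0.46 without an expression filter and -0.12 with the length and GC trends removed. Of the 27, 20 kept their call in every alternative tried, and of the 2, Psmd14 did. The second, Psme4 at 0.22 ± 0.09 (SE, edgeR adjusted p = 0.0404), lost it in 9 of the 12 fits that left out 1 library, where its adjusted p reached 0.155. By group, 6 of 8 tested beta ring genes, 5 of 7 alpha ring genes, 5 of 9 base genes, 3 of 8 lid genes, 3 of 5 activators and inhibitors, and 5 of 7 chaperones were called lower in PMJ2R than in ID8. The lid was the group whose median lay nearest to 0, at -0.16, and the chaperones lay farthest, at -0.65. Apart from Psmb10 and Psmg2, the widest gaps were those of Psmg1 at -0.91 ± 0.12 (SE, edgeR adjusted p = 6.79e-07), Psmc3 and Psme2 at -0.75 and -0.73. Psmb7 lay nearest to 0 in the beta ring, at -0.23 ± 0.10 (SE, edgeR adjusted p = 0.0602), Psmg4 nearest in the chaperones, at -0.04, and Psmd1 was the highest of the base, at 0.13, none of them called. Psmb7 was called lower with library totals, at -0.29, without an expression filter, at -0.28, with the length and GC trends removed, at -0.32, and in 3 of 12 fits without 1 library. Psmd1 was called higher with RLE size factors and DESeq2, at 0.25, and with genes under 5 CPM left out, at 0.21.

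**Figure D5:**
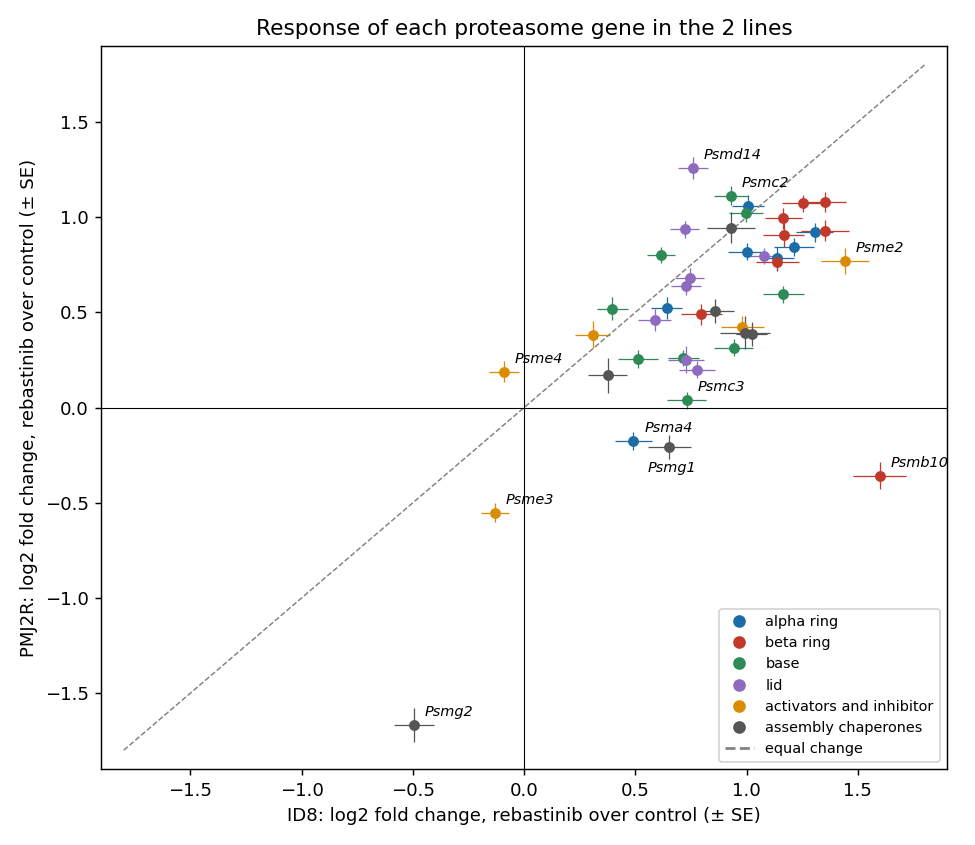
Log2 fold change with rebastinib over control ± SE of each of the 44 tested genes in PMJ2R (y axis) and ID8 (x axis), coloured by structural group; the dashed line marks equal change. Most points lie in the upper right below the line, Psmd14 lies above it (1.26 in PMJ2R and 0.76 in ID8), and Psmb10 (-0.36 in PMJ2R and 1.60 in ID8) and Psmg2 (-1.67 in PMJ2R and -0.50 in ID8) stand apart.

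The control cells of the lines overlapped in their summed proteasome RNA, while single genes differed in both directions. Summed over all 46 genes, PMJ2R control cells stood at 5414 ± 103 CPM and ID8 control cells at 5227 ± 269 CPM (SD, n = 3). These sums are on the scale of all 12 libraries, whereas the calls come from a fit of the control libraries alone. The median log2 fold change of the proteasome genes was -0.00055 with all 12 libraries in 1 fit and -0.11 in the separate fit. Of 44 genes, 15 were higher and 20 lower in PMJ2R control cells, against 39.4% and 42.9% of all 15924 genes, and with at least a 2-fold difference 1 was higher and 1 lower, against 18.1% and 25.6%. With the trends on length and GC content removed, which moved the median of all genes to 0.37, the split was 23 higher and 8 lower. Of all 15924 genes, 8662 were then called higher and 5135 lower, so the share of higher genes was near that of all genes. All 15 higher genes kept their call in every alternative, as did 7 of the 20 lower ones. The alternatives moved the median of all genes from -0.03 up to 0.37, but down only to -0.06. They therefore bore more on the lower calls, and the 2 kept counts do not show which direction was the firmer. How many calls of all genes were kept was not counted. The higher genes were 5 of the 7 chaperones, Psme1, Psme2 and Psme3, the alpha subunits Psma4, Psma5 and Psma6, the beta subunits Psmb2 and Psmb10, and Psmd6 and Psmd8 of the lid. Psmg1 was the highest, at 51.1, 49.995 and 53.2 CPM in PMJ2R control and 22.3, 22.9 and 26.1 CPM in ID8 control, 1.00 ± 0.07 (SE, edgeR adjusted p = 5.46e-11). Psmb10 stood at 42.7, 37.8 and 39.1 CPM in PMJ2R control and 17.7, 19.5 and 22.5 CPM in ID8 control, 0.89 ± 0.08 (SE, edgeR adjusted p = 4.13e-09). Psme3 stood at 264, 274 and 307 CPM in PMJ2R control and 151, 152 and 148 CPM in ID8 control, 0.79 ± 0.06 (SE, edgeR adjusted p = 4.26e-10). None of the 3 overlapped between the lines.

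No gene of the base was called higher in PMJ2R control cells, and 6 of 9 were called lower, of which Psmc4 and Psmc6 kept their call in every alternative. With the length and GC trends removed Psmd1 at 0.37, Psmc3 at 0.16 and Psmd4 at 0.15 were called higher, and Psmd1 was also called higher with library totals, at 0.14, and with all 12 libraries in 1 fit, at 0.17. Psmc4 was the lowest of the base, at 114, 109 and 115 CPM in PMJ2R control and 149, 151 and 174 CPM in ID8 control, -0.60 ± 0.06 (SE, edgeR adjusted p = 4.60e-08). Psmd10 was the lowest of all, at 19.2, 21.1 and 18.1 CPM in PMJ2R control and 34.3, 38.1 and 41.6 CPM in ID8 control, -1.08 ± 0.08 (SE, edgeR adjusted p = 1.85e-10). Its gene lies on the X chromosome. In the beta ring Psmb6 was the lowest, at -0.53 ± 0.07 (SE, edgeR adjusted p = 4.84e-07), and in the lid Psmd12, at 107, 113 and 107 CPM in PMJ2R control and 139.6, 140.3 and 147 CPM in ID8 control, -0.49 ± 0.06 (SE, edgeR adjusted p = 1.31e-07). Psmd6 went the other way, at 133, 127 and 115 CPM in PMJ2R control and 75.9, 80.04 and 86.5 CPM in ID8 control, 0.52 ± 0.07 (SE, edgeR adjusted p = 6.47e-07). Among the activators Psme4 was lower in PMJ2R control cells, -0.84 ± 0.07 (SE, edgeR adjusted p = 3.64e-10), but with the length and GC trends removed this was -0.09 and not called. In the alpha ring Psma5 was the highest, at 142, 135 and 121 CPM in PMJ2R control and 75.5, 77.8 and 82.3 CPM in ID8 control, 0.65 ± 0.07 (SE, edgeR adjusted p = 1.94e-08). The lowest of that ring was Psma3, at 126, 121 and 107 CPM in PMJ2R control and 115, 116 and 127 CPM in ID8 control, with -0.13 ± 0.07 (SE, edgeR adjusted p = 0.0891), not called.

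Genes that work with the proteasome were followed as a second list of 30, of which 29 were tested and Paaf1 was not. In ID8 18 were higher and 8 lower, and in PMJ2R 20 were higher and 7 lower, with median log2 fold changes of 0.39 in ID8 and 0.42 in PMJ2R. Over all genes tested 38.4% were higher and 42.0% lower in ID8, and 40.1% higher and 43.6% lower in PMJ2R. Of the proteins bound to the particle, 6 of 9 were higher and 2 lower in each line. Sem1, the small lid component, stood at 581, 492 and 402 CPM in rebastinib-treated ID8 cells, against 137, 139.7 and 172 CPM in ID8 control cells, and at 241, 224 and 236 CPM in rebastinib-treated PMJ2R cells, against 103, 89.4 and 94.9 CPM in PMJ2R control cells, with log2 fold changes of 1.72 ± 0.12 (SE, edgeR adjusted p = 9.32e-09) in ID8 and 1.35 ± 0.06 (SE, edgeR adjusted p = 1.44e-13) in PMJ2R. The ubiquitin receptor Adrm1 rose by 1.03 in ID8 and 0.63 in PMJ2R on the log2 scale, and the deubiquitinase Usp14 by 0.65 in ID8 and 1.02 in PMJ2R. Uchl5, the deubiquitinase that Adrm1 recruits, was at 0.75 ± 0.09 (SE, edgeR adjusted p = 1.67e-06) in ID8 and at -0.48 ± 0.05 (SE, edgeR adjusted p = 8.64e-08) in PMJ2R. Pomp, the chaperone that completes the beta ring, stood at 302, 262 and 225 CPM in rebastinib-treated ID8 cells, against 75.3, 75.3 and 84.4 CPM in ID8 control cells, and at 197, 202 and 208 CPM in rebastinib-treated PMJ2R cells, against 107, 109.7 and 95.6 CPM in PMJ2R control cells, with log2 fold changes of 1.75 ± 0.10 (SE, edgeR adjusted p = 1.11e-09) in ID8 and 1.02 ± 0.06 (SE, edgeR adjusted p = 9.65e-12) in PMJ2R. Akirin2, which brings the particle into the nucleus, was higher in both lines, by 0.72 in ID8 and 1.26 in PMJ2R.

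Shuttle factors, which carry ubiquitin-tagged proteins to the particle, were mixed, with 3 of 6 higher and 3 lower in ID8 and 3 higher and 2 lower in PMJ2R, shares near those of all genes. Ubqln1 had log2 fold changes of 0.72 in ID8 and 1.49 in PMJ2R, and Ubqln2 of -1.57 in ID8 and -2.40 in PMJ2R, all 4 called. Of the ubiquitin genes, Rps27a, which encodes ubiquitin fused to a ribosomal protein, rose by 1.57 in ID8 and by 1.08 in PMJ2R on the log2 scale, whereas the polyubiquitin gene Ubb was at -0.01, not called, in ID8 and at -0.24, called lower, in PMJ2R. Vcp, the ATPase that extracts proteins ahead of the proteasome, was higher by 0.63 in ID8 and 0.76 in PMJ2R. Of the factors that drive proteasome genes, Nfe2l1 (NRF1), which restores subunit levels when the protease is inhibited, stood at 126, 129.97 and 144 CPM in rebastinib-treated ID8 cells, against 304, 295 and 293 CPM in ID8 control cells, and at 94.7, 101 and 99.1 CPM in rebastinib-treated PMJ2R cells, against 124, 127 and 133 CPM in PMJ2R control cells. Its treated libraries lay under the controls in both lines, with log2 fold changes of -1.15 ± 0.07 (SE, edgeR adjusted p = 2.40e-09) in ID8 and -0.32 ± 0.05 (SE, edgeR adjusted p = 5.79e-06) in PMJ2R. Ngly1, the enzyme that activates NRF1 by removing its sugars, was also lower, -1.43 in ID8 and -1.08 in PMJ2R. Nfe2l2 (NRF2), the factor of the oxidative response, was higher, at 289, 306 and 336 CPM in rebastinib-treated ID8 cells, against 183, 191 and 193 CPM in ID8 control cells, and at 115, 128 and 129 CPM in rebastinib-treated PMJ2R cells, against 94.1, 95.8 and 100.4 CPM in PMJ2R control cells, with 0.72 ± 0.07 (SE, edgeR adjusted p = 3.46e-07) in ID8 and 0.42 ± 0.05 (SE, edgeR adjusted p = 6.09e-07) in PMJ2R.

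Among the genes whose level over the 12 libraries was most like the mean of the 44 tested proteasome genes, by Pearson's r of log2 CPM, were Minos1 (0.998), Rpl23a (0.997), Dbi (0.996) and Txn1 (0.996). They encode a mitochondrial inner membrane protein, a cytosolic ribosomal protein, an acyl-CoA binding protein and thioredoxin. These values describe 4 clusters of 3 libraries that share lines and treatments, and carry no test. Within the proteasome genes Psma7 followed the mean most closely (0.996) and Psmg2 least (-0.69), with Psme3 at -0.44 and Psme4 at 0.05.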

How the data were processed

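RNA-seq libraries of ID8 and PMJ2R cells, 3 per group, were analysed from the raw counts per gene that the authors deposited, whole numbers for 55421 Ensembl identifiers. Per the submitters' processing notes, FastQC, STAR 2.6.1c, featureCounts, DESeq2 and GRCm38 were used, with no role or order stated. For the annotation, the strand setting and multi-mapping reads, the sources used here give nothing. GENCODE vM21 symbols matched 55240 identifiers, and 181 had none. Members and gene lists were chosen with earlier results of these data known.

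Each comparison was fitted on its own 6 libraries, and the difference of the responses on all 12, with edgeR 4.0.16 (R 4.3.3): filterByExpr, TMM scaling, quasi-likelihood F test, Benjamini-Hochberg adjustment over all genes tested at 0.05. Log2 CPM used a prior count of 2. CPM are on 1 scale for all 12 libraries, so their ratios differ from the fold changes of a comparison's own fit. The proteasome median between control cells was -0.00055 with all 12 libraries in 1 fit and -0.11 in the comparison's own fit. In ID8 these medians were both 0.89, and in PMJ2R 0.50 and 0.56. Levels per length used the union of exons. Replicate pairs differed beyond sampling noise (chi-square per degree of freedom 1.67 to 21.4). No column of another sample was present, and the chemotherapy arms named in the design text are not analysed here.

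Genes named with values in every library were the highest and lowest of each structural group in each comparison and a set list of catalytic, activator and lid genes. Their levels stand once, where the gene is first described. Alternatives were RLE size factors, library totals, TMM with abundant classes left out, DESeq2 1.42.0, limma-voom (limma 3.58.1), no filter, genes under a mean of 5 CPM left out, a replicate block, removal of trends on length and GC content, all 12 libraries in 1 fit, and leaving out each library. The scripts were tested on simulated counts. Values of some genes of the pathway list and of the likeness ranking are not reported here.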

Additional observations from a re-analysis of the deposited data

Results flagged for a closer look

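The response to rebastinib differed between the lines for 29 of the 44 tested proteasome genes by the interaction test over all 12 libraries (edgeR, adjusted p at 0.05). Over all 16566 genes tested, the same test called 21.8% higher and 30.6% lower in PMJ2R than in ID8. The values here are the difference of the responses, PMJ2R minus ID8, on the log2 scale. The higher responses in PMJ2R were Psmd14 at 0.44 and Psme4 at 0.22. In the beta ring the lower ones were Psmb10 at -2.01, Psmb3 at -0.48, Psmb6 at -0.43, Psmb4 at -0.36, Psmb1 at -0.32 and Psmb5 at -0.31. Psmb10, the inducible subunit, was lower in every treated PMJ2R library and higher in every treated ID8 library than in all controls of its line. In the alpha ring they were Psma4 at -0.72, Psma2 at -0.44, Psma7 at -0.43, Psma3 at -0.41 and Psma6 at -0.24. In the base they were Psmc3 at -0.75, Psmd4 at -0.68, Psmc5 at -0.63, Psmc1 at -0.51 and Psmc4 at -0.31, and in the lid Psmd7 at -0.63, Psmd13 at -0.53 and Psmd8 at -0.34. Among the activators they were Psme2 at -0.73, Psme1 at -0.61 and Psme3 at -0.48. Among the chaperones they were Psmg2 at -1.23, Psmg1 at -0.91, Psmd5 at -0.69, Psmg3 at -0.65 and Psmd9 at -0.41. Groups of 3 libraries were not searched for outlying samples, and no cause of these differences was tested.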

How the results depend on the processing

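Counts of called proteasome genes that moved by over 1.5 times under an alternative were the following. Genes called lower with rebastinib in ID8, 1 as reported, numbered 3 with library totals, 3 with genes of a mean under 5 CPM left out and 2 with all 12 libraries in 1 fit. In PMJ2R library totals gave 20 higher and 16 lower, against 3103 and 8676 of all 14010 genes. Responses higher in PMJ2R than in ID8, 2 as reported, numbered 5 with RLE size factors and DESeq2, 4 with genes under 5 CPM left out, and 1 with library totals, no filter, the trends removed, and the block with trends removed. Between control cells the trends gave 23 higher and 8 lower, against 8662 and 5135 of all 15924 genes, and with the block 9 lower, against 5049. At 2-fold, the 1 higher gene numbered 0 with RLE, with abundant classes left out, with DESeq2 and without a filter, and 5 with the trends removed with or without the block. The 1 lower gene numbered 0 with library totals and with 12 libraries in 1 fit. The cause of these changes was not tested.

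Samples with the same replicate number had correlations of -0.17 to 0.07 in their deviations from the group means. With 3 libraries per group these values cannot show whether samples were paired, and the main fits used the numbers only as names. With the number as a replicate block, calls were 41 higher and 1 lower in ID8, 37 and 5 in PMJ2R, 1 and 24 for the difference of the responses, and 15 and 20 between control cells.

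Leaving out 1 library at a time gave 41 to 41 higher and 1 to 1 lower genes in ID8, 37 to 38 and 4 to 5 in PMJ2R, 15 to 16 and 18 to 21 between control cells (0 to 1 higher and 1 to 1 lower at 2-fold), and 1 to 2 higher and 24 to 31 lower responses in PMJ2R than in ID8. The difference of the responses lost its call for Psma6 and Psme4 in 9 of 12 such fits, for Psmb5 in 6, and for Psmc4 without the first ID8 control (adjusted p 0.0523). Psmg1 in PMJ2R lost it without the second treated library. Between control cells Psmd4 lost it in 3 of 6, and Psmc1 and Psmb1 in 1. Values near 0 changed sign: the difference of the responses spanned -0.035 to 0.048 for Psmf1, -0.079 to 0.033 for Psma5 and -0.11 to 0.035 for Psmg4, and Psmd14 between control cells spanned -0.087 to 0.036.

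Summed levels, as log2 ratios, moved with library totals in ID8 to -0.086 for activators, 0.56 for the alpha ring, 0.26 for chaperones, 0.39 for the base, 0.75 for the beta ring and 0.33 for the lid. In PMJ2R they moved to -0.57 for activators, 0.10 for the alpha ring, -0.41 for chaperones, 0.12 for the base, 0.31 for the beta ring and 0.11 for the lid. With RLE the PMJ2R values were -0.013 for activators, 0.68 for the base and 0.67 for the lid, and between control cells 0.21 for activators, 0.24 for the alpha ring, 0.29 for chaperones, -0.22 for the base and -0.20 for the lid. Without 1 library the base in PMJ2R lay at 0.59 to 0.62 and the lid at 0.59 to 0.61. With the longest transcript in place of the union of exons the Psmb10 share was 19.4% in treated and 38.1% in control PMJ2R cells, and 26.2% in ID8 control cells.

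Single genes changed direction as follows, each given as a log2 value under the alternative. With library totals in ID8 these were Psmf1 -0.12, Psmd10 -0.058 and Psmc6 -0.037, and in PMJ2R Psme1 -0.13, Psme4 -0.37, Psmf1 -0.18, Psma1 -0.033, Psmd10 -0.39, Psmd5 -0.17, Psmd9 -0.050, Psmg3 -0.16, Psmc1 -0.30, Psmc3 -0.52, Psmc4 -0.30, Psmc6 -0.038, Psmd4 -0.24, Psmb4 -0.068, Psmd13 -0.31, Psmd6 -0.098 and Psmd7 -0.36. Without an expression filter they were in PMJ2R Psme4 -0.017, Psmd10 -0.037, Psmc3 -0.17 and Psmd7 -0.0070, and with 5 CPM Psmc3 -0.013. With the length and GC trends removed they were Psme3 0.097 and Psme4 0.42 in ID8 and Psmd10 -0.12 in PMJ2R, and adding the block gave Psme3 0.098 and Psme4 0.42, and Psmd10 -0.12. With 12 libraries in 1 fit it was Psmc3 -0.023 in PMJ2R. For the difference of the responses they were Psmf1 -0.051 with library totals, Psmf1 -0.039 without a filter, Psma5 0.12 and Psmg4 0.084 with RLE, Psma5 0.12 and Psmg4 0.084 with DESeq2, Psma5 0.076 and Psmg4 0.041 with 5 CPM, Psma5 0.0023 with limma-voom, Psma5 0.00036 with the block, Psme4 -0.11, Psmf1 -0.019, Psma5 0.10 and Psmg4 0.23 with the trends removed, and Psme4 -0.10, Psmf1 -0.021, Psma5 0.11 and Psmg4 0.23 with both. Between control cells they were Psmd14 0.047 with library totals, Psmd14 0.072 with 12 libraries, Psma3 0.085, Psmc3 0.16, Psmd2 0.053, Psmd4 0.15 and Psmd3 0.15 with the trends removed, and Psma3 0.085, Psmc3 0.16, Psmd2 0.052, Psmd4 0.15 and Psmd3 0.15 with both. Calls lost without a change of sign numbered 6 in ID8, 10 in PMJ2R, 34 for the difference and 24 between control cells, summed over genes and these alternatives, and calls gained 5, 3, 7 and 10. Among those gained, the difference for Psmd1 was 0.25 with RLE and DESeq2 and 0.21 with 5 CPM.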
